A study of Mus musculus with 10 samples.

Results

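The genes described here are 60 genes of mitosis, with products in the kinetochore, the spindle, the spindle checkpoint, condensin and the machinery of cytokinesis. They were chosen by name from what their products do, with earlier results of these data known. All 60 were found among the 55809 gene rows of the deposited count tables. RNA-seq libraries had been made from Treg cells of spleen and lymph nodes, 4 from R26-WT mice (replicates 1 to 4) and 6 from R26-TIR1(F74G) mice (replicates 5 to 10). Both groups carried the Foxp3-AID allele, the endogenous Foxp3 gene encoding Foxp3 fused to an auxin-inducible degron together with a ZsGreen reporter and Cre recombinase, and both were given 5-ph-IAA for 14 days. R26-TIR1(F74G) mice also carried a ROSA26 allele with the plant E3 ligase TIR1(F74G) and an mCherry reporter behind a loxP-flanked STOP cassette. TIR1(F74G) was thus made only where Cre from the Foxp3 locus had acted, and 5-ph-IAA could trigger degradation of AID-Foxp3 there. The control mice had a wild-type ROSA26 locus and hence neither TIR1 nor mCherry. The labels give no age, the file headers name male mice, and whether each library came from its own mouse is not given in the sources used here. The study's methods give the Treg gate as CD4+ TCRb+ cells with ZsGreen in R26-WT and with both ZsGreen and mCherry in R26-TIR1(F74G), so the gate differed with genotype and its part cannot be told apart. The p-values below therefore measure the spread between these libraries. Per the labels, libraries were amplified by PCR from 1 to 2 ng of RNA without molecular identifiers, and RNA integrity was uneven between samples. The study's methods give the same input for libraries of female mice, so whether it holds for these libraries could not be settled.

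In a dividing cell, centromeres carrying the histone variant CENP-A recruit the kinetochore, which binds microtubules of the spindle, while the checkpoint kinases hold back the anaphase-promoting complex until every chromosome is attached. Aurora B and its partners correct faulty attachments, kinesins and microtubule-associated proteins shape the spindle, condensin and topoisomerase II compact and disentangle the chromosomes, and a contractile ring then divides the cell. Most of these genes are transcribed in G2 and M phase and are kept low in resting cells, where the DREAM complex binds the cell-cycle homology region (CHR) in their promoters. Peripheral Treg cells are a mixture of resting cells and a smaller number of activated, cycling cells, and the transcripts are therefore widely read as a measure of cycling in T cell populations.

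Of the 60 members, all of which passed the filter of a mean count of at least 10, 36 were higher in R26-TIR1(F74G) and none was lower (DESeq2, Benjamini-Hochberg adjusted p under 0.05 over all 16363 tested genes). The background was 1.4% of all tested genes called higher and 0.336% called lower. The members were chosen with earlier results of these data known, so the contrast with this background is a description. The median log2 fold change of the members was 1.13, a 2.19-fold difference, against 6.27e-04 over all tested genes, and 56 of the 60 members had a positive log2 fold change. At an unadjusted p under 0.05, 48 of the 60 members passed, all of them higher (background 4.17%). In bulk libraries a larger number of cells in mitosis and more RNA of these genes per cell cannot be told apart.

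Fewer members passed other tests. The quasi-likelihood test of edgeR, for which the background was 0.33% called higher, called 8 of the 36 members (Aurkb, Birc5, Cdca8, Cenpm, Hmmr, Tacc3, Stmn1 and Ube2c) and none lower. limma voom with quality weights called 12 members higher, all of them among the 36 (background 0.422%). For 32 members all 6 R26-TIR1(F74G) libraries lay above all 4 R26-WT libraries in normalized counts, that is counts divided by DESeq2 size factors, against a background of 1.57% of all tested genes.

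**Figure D1:**
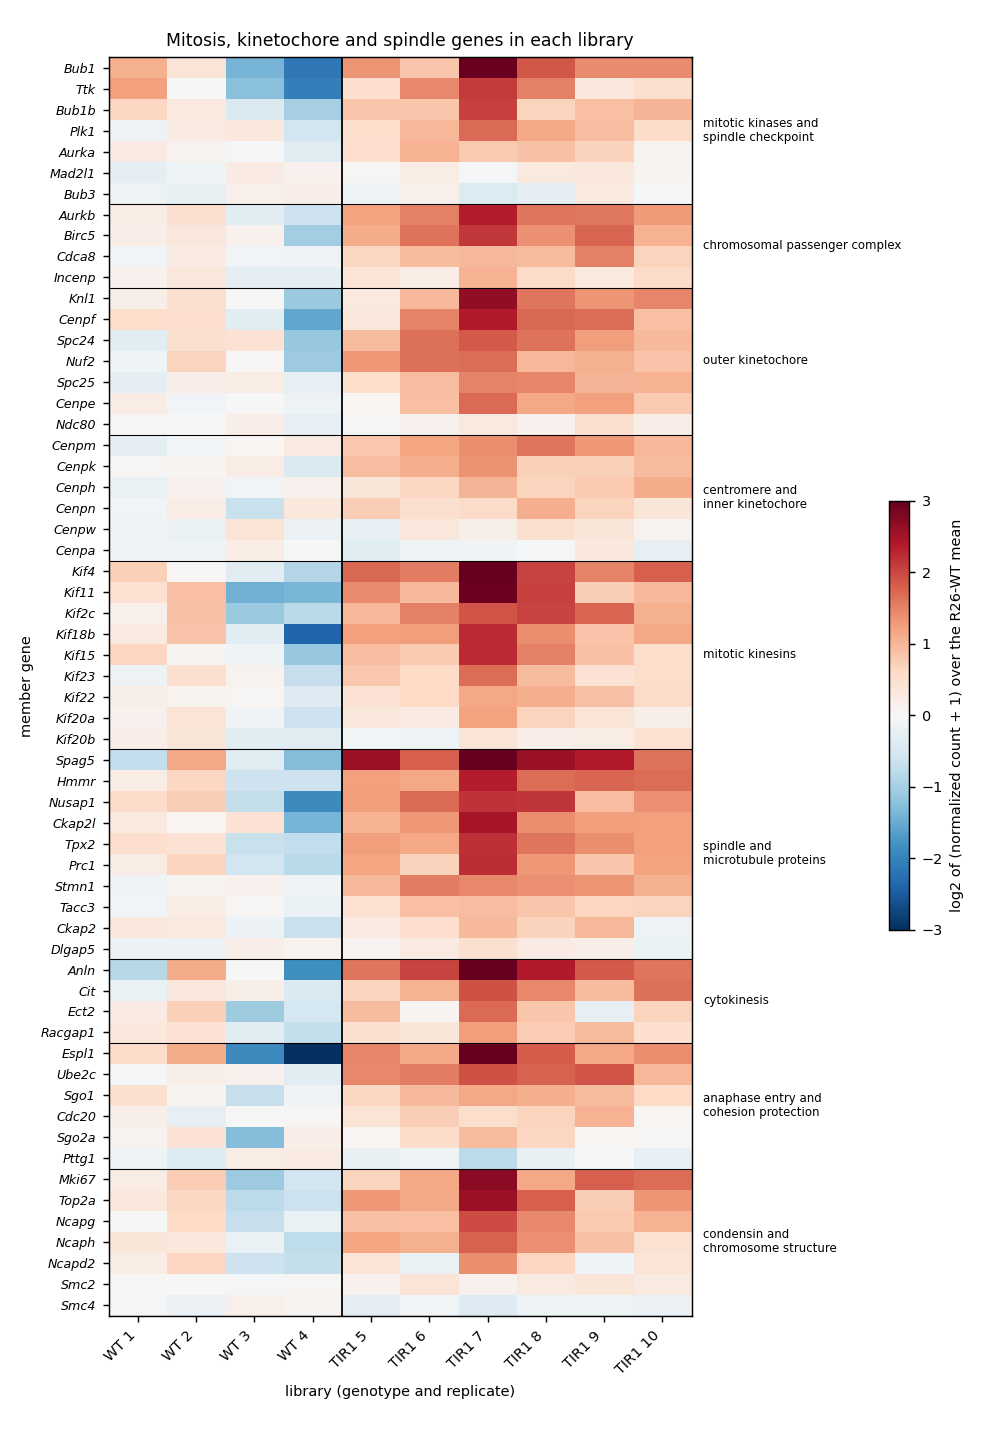
Each row is 1 of the 60 members, grouped by role, and each column 1 library. The colour gives the log2 of the normalized count plus 1 over the mean of the 4 R26-WT libraries, with a scale limited to −3 and 3. Most rows are red across the R26-TIR1(F74G) libraries, reddest in replicate 7, and R26-WT replicate 4 is blue in many rows, while Bub3, Cenpa, Pttg1 and Smc4 stay pale.

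Total counts ranged from 24158699 to 54795718 read pairs and were lower in R26-TIR1(F74G) (exact permutation test over all 210 splits, two-sided p = 0.0476, and between 0.0317 and 0.131 when 1 library was left out). Libraries differed in how counts depended on gene length. The difference between long and short genes, on a log2 scale, was highest in R26-TIR1(F74G) replicate 7 (0.63) and lowest in R26-WT replicates 3 and 4 (−0.52 and −0.41), with the other 7 libraries between −0.31 and 0.41. The members are long (median exon length 5194 bases against 3419 for all tested genes). With the length trend removed from each library, 42 members were called higher, including all 36, and the 6 added were Cdc20, Incenp, Kif11, Kif18b, Kif23 and Racgap1 (background 1.57%). edgeR with the trend removed, chosen after seeing the data, called 22 of the 36 and no other member (background 0.66%). Leaving out the 3 libraries at the ends of the trend, again chosen after seeing the data, 20 of the 36 were called higher against a background of 1.15%, none was called lower against 1.77%, and the median log2 fold change was 0.63.

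The libraries carried the transcripts of Treg cells. Foxp3, Cd4, Il2ra and the other genes of a list of 9 Treg and CD4 T cell markers were all tested and none was called. Their summed level was 5450 to 6597 CPM, that is reads scaled to a common library total, in R26-WT and 5226 to 6085 in R26-TIR1(F74G). The degron acts on protein, so Foxp3 RNA (6816 to 11779 in R26-WT and 6778 to 16059 in R26-TIR1(F74G) in normalized counts) checks neither degradation nor the labels. The summed levels of B cell (16.7 to 31.7 CPM over all libraries), erythroid (0.448 to 1.41), myeloid (54.1 to 88.1), immature thymocyte (85.0 to 113) and germinal centre and plasma cell markers (203 to 276) overlapped between the groups. Among the markers at 0 in every library were Cd14, S100a9, Ncr1 and Ptcra. Of the 7 CD8 and NK cell markers, 6 were tested and Eomes was the single call of any marker list, with normalized counts of 135, 127, 105 and 68.5 in R26-WT replicates 1 to 4. In R26-TIR1(F74G), Eomes ranged from 209 to 404 with a median of 294. Eomes differed by 1.47 on the log2 scale (SE 0.23), with adjusted p = 4.54e-08 by DESeq2 and 0.0161 by edgeR. That list summed to 30.4 to 44.8 CPM in R26-WT and 32.1 to 41.0 in R26-TIR1(F74G).

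**Figure D2:**
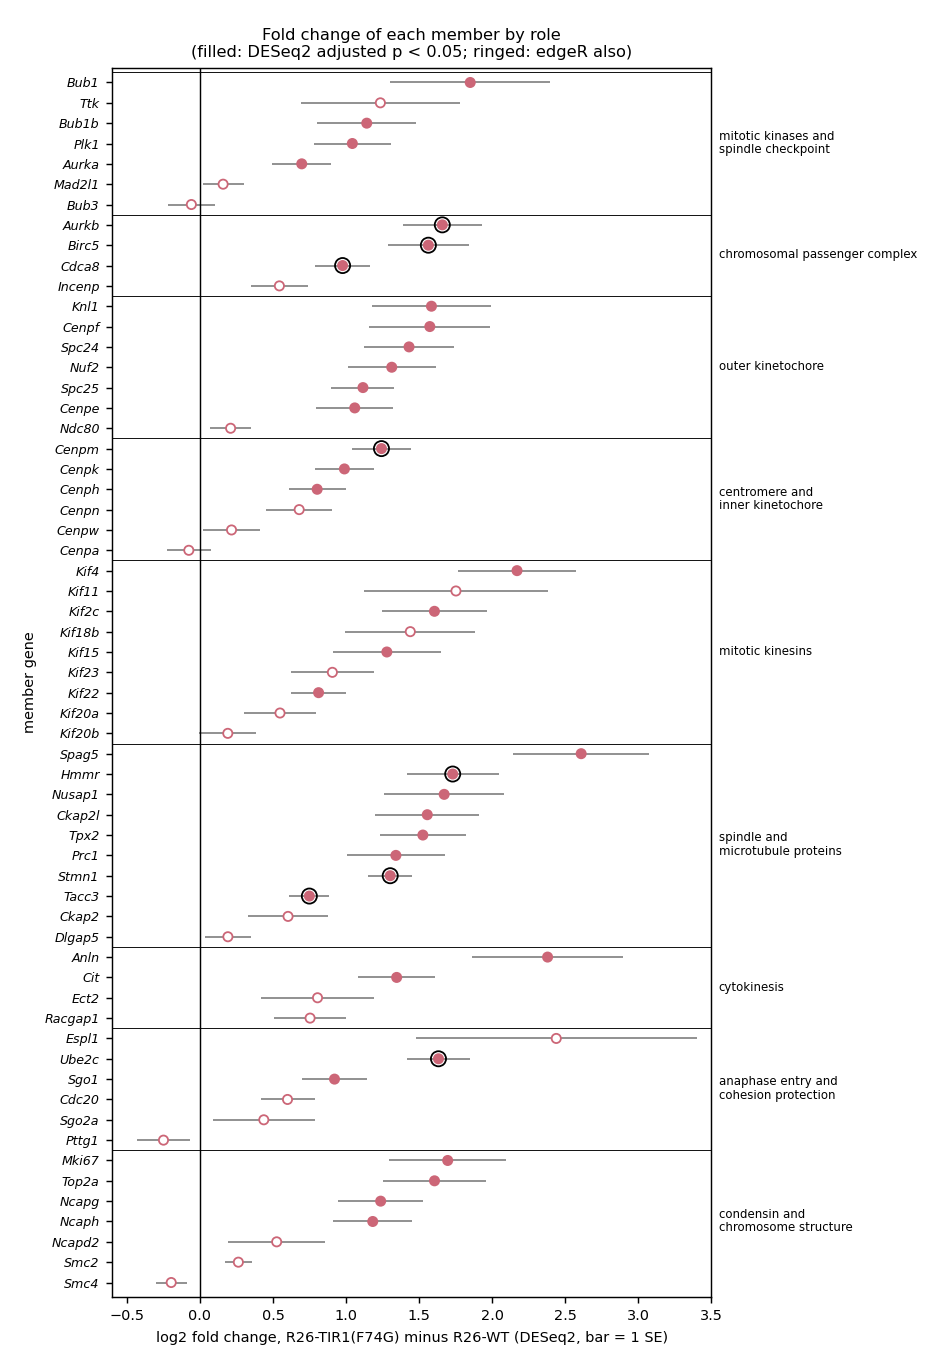
The horizontal axis is the DESeq2 log2 fold change of R26-TIR1(F74G) over R26-WT with a bar of 1 SE, for each of the 60 members grouped by role. Filled points passed DESeq2 and ringed points passed edgeR as well. Every role holds members to the right of 0 that passed, and 4 members (Bub3, Cenpa, Pttg1 and Smc4) lie to the left of 0.

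The CHR and the CCAAT box, promoter elements known from many G2/M genes, were counted in RefSeq promoter windows of 300 bases, 250 before and 50 after the start (build GRCm38). Windows were found for 52 members (58 windows). No window was found for Aurkb, Dlgap5, Incenp, Kif20a, Smc4, Spc24, Stmn1 and Tpx2. The CHR was searched as TTTGAA or TTCGAA on both strands, and TTCGAA reads the same on either. It was present in 43 of the 58 member windows (74.1%) against 19.2% of all 32851 windows. CCAAT, on either strand, was present in 75.9% against 37.4%, both elements in 63.8% against 7.52%, and the E2F motifs GCGGGAA or TTTGGCG in 13.8% against 5.99%. Most matches to the CHR in member windows lay near the start, and 40 of the 56 matches in member windows (71.4%) began within 50 bases of it, against 25.2% of the 7260 matches in all windows.

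**Figure D3:**
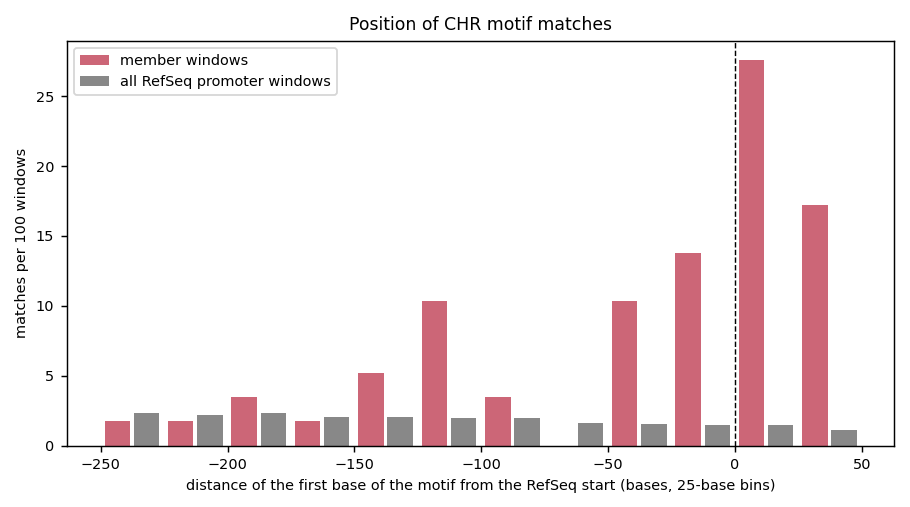
Matches to the CHR per 100 promoter windows (vertical axis) by the distance of their first base from the RefSeq start (horizontal axis, bins of 25 bases), for the 58 member windows in red and all 32851 windows in grey. The red bars rise around the start, up to 27.6 per 100 windows in the bin just after it, where the grey bar is at 1.44.

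The element was not confined to members that passed. The CHR was in 68.6% of the 35 windows of called members and in 82.6% of the 23 windows of members not called, including those of Bub3, Ndc80, Cenpa and Cenpw, which did not pass, whereas Birc5, Tacc3, Cit and Ncaph passed without one in their windows. Among other mitotic genes, the CHR was in 56.5% of the 23 windows of other spindle and cytokinesis proteins and in 9 of 25 windows of other kinetochore proteins. The E2F motifs were in 7 of those 25 windows and in 4 of 12 windows of gamma-tubulin and augmin genes, higher shares than in the members. Of the lists without a call, gamma-tubulin and augmin had the CHR in 0 of 12 windows and the anaphase-promoting complex in 4 of 19 (21.1%), near the share in all windows, and condensin II in 3 of 4. A match describes letters and no binding was measured here.

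The promoters of the 4 called members with the smallest p that hold a CHR before the start are shown to let the elements be seen, each read 5′ to 3′ on the strand of the gene, with matches to the CHR and to CCAAT in capitals. Each was located by a single exact match in GRCm39. In Ube2c the stretch before any exon annotated in GENCODE M39 (chr2:164611608-164611767, plus strand) holds CCAAT boxes, and the CHR lies 29 bases before the RefSeq start in a 30-base site (chr2:164611808-164611837, plus strand) that lies in an annotated exon of the gene.
Ube2c upstream: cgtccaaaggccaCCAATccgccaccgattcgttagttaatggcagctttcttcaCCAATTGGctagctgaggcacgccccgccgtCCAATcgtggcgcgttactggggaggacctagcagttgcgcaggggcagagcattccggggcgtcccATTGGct
Ube2c CHR site: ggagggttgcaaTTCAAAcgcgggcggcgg
In Cenpm the CHR begins 83 bases before the RefSeq start, in a stretch (chr15:82128612-82128706, minus strand) inside the annotated gene but outside exons.
Cenpm upstream: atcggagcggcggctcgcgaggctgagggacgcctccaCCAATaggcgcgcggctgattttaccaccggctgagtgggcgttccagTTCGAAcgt
In Top2a the upstream stretch (chr11:98915063-98915222, minus strand), which lies outside any annotated gene, holds 3 further CHR matches and 5 CCAAT boxes, and another CHR lies 23 bases before the start (chr11:98915021-98915050, minus strand), in an annotated exon.
Top2a upstream: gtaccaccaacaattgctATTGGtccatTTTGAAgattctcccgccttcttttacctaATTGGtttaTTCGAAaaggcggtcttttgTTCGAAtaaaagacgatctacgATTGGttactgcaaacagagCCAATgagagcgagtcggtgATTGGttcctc
Top2a CHR site: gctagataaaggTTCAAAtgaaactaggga
In Kif2c the 160 bases before the RefSeq start (chr4:117035970-117036129, minus strand) lie inside the annotated gene and outside exons, and the CHR begins 103 bases before that start.
Kif2c upstream: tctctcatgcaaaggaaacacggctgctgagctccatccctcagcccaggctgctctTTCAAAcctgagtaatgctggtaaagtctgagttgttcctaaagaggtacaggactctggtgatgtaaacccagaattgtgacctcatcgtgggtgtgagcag
The spacing differed among the 4. In Ube2c, Cenpm and Top2a the CHR nearest to the start lay after the CCAAT boxes. The Kif2c window had no CCAAT, and its RefSeq start lies inside the gene, downstream of the 5′ end at 117039836 in the count annotation.

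Stmn1, Mki67 and Top2a are among the most used markers of cycling cells. Stmn1 (chromosome 4, 134195631 to 134201154, plus strand, GRCm39 as for all positions given here) encodes stathmin, which takes apart microtubules, and had the smallest p of all members. It had normalized counts of 198, 226, 232 and 198 in R26-WT replicates 1 to 4. In R26-TIR1(F74G), Stmn1 ranged from 417 to 617 with a median of 544. The groups were far apart. Stmn1 differed by 1.30 on the log2 scale (SE 0.15), with adjusted p = 1.31e-14 by DESeq2 and 0.00464 by edgeR. Gm11223, a gene row of which 87.5% of the 50-base stretches also occur in Stmn1 transcripts, moved alike (log2 fold change 1.23, DESeq2 adjusted p = 4.41e-13). Its normalized counts were 321 to 1061 over all libraries, against 198 to 617 for Stmn1, so reads could have been split between them. Mki67 (chromosome 7, 135291513 to 135318090, minus strand), which encodes the Ki-67 coat of mitotic chromosomes, had normalized counts of 148, 214, 58.6 and 85.4 in R26-WT replicates 1 to 4. In R26-TIR1(F74G), Mki67 ranged from 203 to 835 with a median of 346. The lowest R26-TIR1(F74G) library, replicate 5, fell below R26-WT replicate 2, and replicate 7 was highest. Mki67 differed by 1.70 on the log2 scale (SE 0.40), with adjusted p = 0.00253 by DESeq2 and 0.176 by edgeR. Top2a (chromosome 11, 98883769 to 98915015, minus strand) encodes the topoisomerase that untangles sister chromatids and had normalized counts of 694, 867, 322 and 355 in R26-WT replicates 1 to 4. In R26-TIR1(F74G), Top2a ranged from 932 to 3320.1 with a median of 1391. The groups did not overlap, but R26-TIR1(F74G) replicate 9 exceeded R26-WT replicate 2 by little. Top2a differed by 1.61 on the log2 scale (SE 0.35), with adjusted p = 9.42e-04 by DESeq2 and 0.128 by edgeR.

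Among the mitotic kinases and spindle checkpoint genes, 4 of 7 were higher (Aurka, Plk1, Bub1 and Bub1b), none of them by edgeR. Plk1 (chromosome 7, 121758662 to 121769096, plus strand), the Polo kinase that drives mitotic entry and centrosome maturation, had normalized counts of 107, 142, 149.8 and 80.3 in R26-WT replicates 1 to 4. In R26-TIR1(F74G), Plk1 ranged from 172 to 393 with a median of 236. All R26-TIR1(F74G) libraries lay above R26-WT. Plk1 differed by 1.04 on the log2 scale (SE 0.27), with adjusted p = 0.00780 by DESeq2 and 0.165 by edgeR. Its call was lost without R26-WT replicate 1 (DESeq2 adjusted p = 0.0639) or R26-WT replicate 4 (DESeq2 adjusted p = 0.0871). Aurka (chromosome 2, 172198110 to 172212455, minus strand), the kinase of the spindle poles, had normalized counts of 227, 206, 186 and 149 in R26-WT replicates 1 to 4. In R26-TIR1(F74G), Aurka ranged from 207 to 397 with a median of 320.4. Replicate 10 was below R26-WT replicate 1. Aurka differed by 0.70 on the log2 scale (SE 0.20), with adjusted p = 0.0362 by DESeq2 and 0.230 by edgeR. The kinases Bub1 and Bub1b, which act at unattached kinetochores, had log2 fold changes of 1.85 (SE 0.55, adjusted p = 0.0431 by DESeq2) and 1.14 (SE 0.34, adjusted p = 0.0435 by DESeq2). Bub1 lost its call in 8 of the 10 fits that left out 1 library, all but those without R26-WT replicate 1 or R26-TIR1(F74G) replicate 6 (DESeq2 adjusted p of 0.0558 to 0.28 in the 8). Bub1b lost its call in 7, all but those without R26-WT replicate 1 or 2 or R26-TIR1(F74G) replicate 8 (DESeq2 adjusted p of 0.0511 to 0.262). Aurka lost its call without R26-WT replicate 2, 3 or 4 or R26-TIR1(F74G) replicate 6, 7, 8 or 9, with DESeq2 adjusted p between 0.0568 and 0.264 in those fits.

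The other 3 checkpoint genes did not pass. Bub3 (chromosome 7, 131161951 to 131173624, plus strand), which recruits the Bub kinases and is abundant in every library, had normalized counts of 10159, 9693, 12515 and 12996 in R26-WT replicates 1 to 4. In R26-TIR1(F74G), Bub3 ranged from 8501 to 13795 with a median of 10506. R26-TIR1(F74G) replicates 7 and 8 lay below all R26-WT libraries, replicate 9 lay above them, and the others were within their range. Bub3 differed by −0.059 on the log2 scale (SE 0.16), with adjusted p = 1.000 by DESeq2 and 0.999 by edgeR. The sign turned when R26-WT replicate 4 or R26-TIR1(F74G) replicate 7 was left out. Mad2l1 had a log2 fold change of 0.16 (SE 0.14) with overlapping groups. Ttk, the kinase that starts checkpoint signalling, had a larger value of 1.23 (SE 0.54, adjusted p = 0.485 by DESeq2), and its R26-WT libraries were themselves spread from 8.46 to 89.98 normalized counts. Ttk did pass without R26-WT replicate 1 (log2 fold change 2.12, DESeq2 adjusted p = 0.00441).

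In the chromosomal passenger complex 3 of 4 members were higher, and all 3 passed edgeR too. Aurkb (chromosome 11, 68936473 to 68942490, plus strand), its kinase, had normalized counts of 111, 132, 74.9 and 61.7 in R26-WT replicates 1 to 4. In R26-TIR1(F74G), Aurkb ranged from 222 to 487 with a median of 281. Every R26-TIR1(F74G) library exceeded every R26-WT library, and replicate 7 stood far above the other 5. Aurkb differed by 1.66 on the log2 scale (SE 0.27), with adjusted p = 5.60e-07 by DESeq2 and 0.0237 by edgeR. Birc5 (chromosome 11, 117740077 to 117746569, plus strand), the survivin subunit that brings the complex to centromeres, had normalized counts of 195, 216, 187 and 82.0 in R26-WT replicates 1 to 4. In R26-TIR1(F74G), Birc5 ranged from 354 to 743 with a median of 486. It too was without overlap. Birc5 differed by 1.56 on the log2 scale (SE 0.28), with adjusted p = 8.07e-06 by DESeq2 and 0.0430 by edgeR. Cdca8, encoding the borealin subunit, had a log2 fold change of 0.98 (SE 0.19, adjusted p = 5.83e-05 by DESeq2) and passed edgeR. Incenp (chromosome 19, 9849660 to 9876915, minus strand), the scaffold that activates Aurora B, is the most abundant of the 4 transcripts per length, with 19.7 ± 5.81 TPM over the 4 R26-WT libraries as mean ± SD against 29.8 ± 8.70 over the 6 R26-TIR1(F74G) libraries. It had normalized counts of 1358, 1581, 1025 and 1044 in R26-WT replicates 1 to 4. In R26-TIR1(F74G), Incenp ranged from 1456 to 2589 with a median of 1755. The groups overlapped at R26-WT replicate 2. Incenp differed by 0.54 on the log2 scale (SE 0.19), with adjusted p = 0.176 by DESeq2 and 0.400 by edgeR. It did pass without R26-WT replicate 2 (DESeq2 adjusted p = 0.0370) and with the length trend removed (0.50, DESeq2 adjusted p = 0.0430).

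In the outer kinetochore, the microtubule-binding layer, 6 of 7 members were higher by DESeq2 and none by edgeR. Spc25 (chromosome 2, 69024239 to 69036538, minus strand) and Spc24 (chromosome 9, 21666738 to 21671599, minus strand) form the end of the NDC80 complex that faces the centromere. Spc25 had normalized counts of 125, 173, 177 and 126 in R26-WT replicates 1 to 4. In R26-TIR1(F74G), Spc25 ranged from 217 to 421 with a median of 306. Spc24 had normalized counts of 89.98, 161, 155 and 51.6 in R26-WT replicates 1 to 4. In R26-TIR1(F74G), Spc24 ranged from 221 to 413 with a median of 316. Neither gene overlapped between the groups. Spc25 differed by 1.12 on the log2 scale (SE 0.22), with adjusted p = 5.88e-05 by DESeq2 and 0.0510 by edgeR. Spc24 differed by 1.43 on the log2 scale (SE 0.30), with adjusted p = 4.98e-04 by DESeq2 and 0.0991 by edgeR. Nuf2, Knl1, Cenpe and Cenpf had log2 fold changes of 1.31 (SE 0.30), 1.58 (SE 0.41), 1.059 (SE 0.26) and 1.57 (SE 0.41); of these, Nuf2 alone did not overlap. Without R26-WT replicate 4, Knl1 and Cenpe lost their calls (DESeq2 adjusted p = 0.0793 and 0.057). Cenpf lost its call without R26-WT replicate 3 or 4 or R26-TIR1(F74G) replicate 7 (DESeq2 adjusted p of 0.0525 to 0.0904). Ndc80 (chromosome 17, 71803095 to 71833852, minus strand), the subunit that contacts the microtubule, had normalized counts of 719, 701, 802 and 589 in R26-WT replicates 1 to 4. In R26-TIR1(F74G), Ndc80 ranged from 681 to 984 with a median of 790.1. The groups overlapped. Ndc80 differed by 0.21 on the log2 scale (SE 0.14), with adjusted p = 1.000 by DESeq2 and 0.999 by edgeR. Leaving out R26-WT replicate 4 gave a log2 difference of 0.14.

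In the centromere and inner kinetochore, Cenpm, Cenpk and Cenph of the constitutive centromere network were higher and Cenpn, Cenpw and Cenpa did not pass. Cenpm (chromosome 15, 82117980 to 82128949, minus strand) had normalized counts of 62.9, 72.8, 80.6 and 93.9 in R26-WT replicates 1 to 4. In R26-TIR1(F74G), Cenpm ranged from 136 to 239 with a median of 185. The highest R26-WT value was below the lowest R26-TIR1(F74G) value. Cenpm differed by 1.24 on the log2 scale (SE 0.20), with adjusted p = 3.91e-07 by DESeq2 and 0.0189 by edgeR. Cenpk (chromosome 13, 104365119 to 104388900, plus strand) had normalized counts of 70.1, 72.8, 79.8 and 50.7 in R26-WT replicates 1 to 4. In R26-TIR1(F74G), Cenpk ranged from 113 to 174 with a median of 132. The groups were apart. Cenpk differed by 0.99 on the log2 scale (SE 0.20), with adjusted p = 1.76e-04 by DESeq2 and 0.0579 by edgeR. Cenph had a log2 fold change of 0.80 (SE 0.20, adjusted p = 0.00412 by DESeq2) and Cenpn one of 0.68 (SE 0.22, adjusted p = 0.107 by DESeq2). Cenph lost its call without R26-WT replicate 1 (DESeq2 adjusted p = 0.054). Cenpa (chromosome 5, 30824121 to 30832174, plus strand), the histone H3 variant that marks centromeres, had normalized counts of 2091, 2049, 2626 and 2304 in R26-WT replicates 1 to 4. In R26-TIR1(F74G), Cenpa ranged from 1777 to 2823 with a median of 2101. R26-TIR1(F74G) replicates 5 and 10 lay below all R26-WT libraries and replicate 9 above them. Cenpa differed by −0.076 on the log2 scale (SE 0.15), with adjusted p = 1.000 by DESeq2 and 0.999 by edgeR. The sign turned without R26-WT replicate 3.

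Of the 9 mitotic kinesins, all had a positive log2 fold change and 4 passed (Kif2c, Kif4, Kif15 and Kif22), none by edgeR. Kif4 (chromosome X, 99669343 to 99770820, plus strand), a chromosome-bound motor of the spindle midzone, had normalized counts of 68.5, 42.3, 33.4 and 21.99 in R26-WT replicates 1 to 4. In R26-TIR1(F74G), Kif4 ranged from 119 to 423 with a median of 142. The groups did not overlap, and replicate 7 was far above the other R26-TIR1(F74G) libraries. Kif4 differed by 2.17 on the log2 scale (SE 0.40), with adjusted p = 2.10e-05 by DESeq2 and 0.0643 by edgeR. Exons of Pdzd11 on the other strand cover 15.1% of its exon bases, and read pairs that overlapped both genes were left out of the counts. Kif15 lost its call without R26-WT replicate 2, 3 or 4 or R26-TIR1(F74G) replicate 7 or 8 (DESeq2 adjusted p of 0.0735 to 0.233). Kif2c (chromosome 4, 117016836 to 117039836, minus strand), which depolymerizes microtubules at centromeres, had normalized counts of 74.1, 123, 30.1 and 37.2 in R26-WT replicates 1 to 4. In R26-TIR1(F74G), Kif2c ranged from 133 to 272 with a median of 206. The groups were apart by a small margin. Kif2c differed by 1.605 on the log2 scale (SE 0.36), with adjusted p = 0.00122 by DESeq2 and 0.123 by edgeR. Kif11, the motor that pushes spindle poles apart, had a large but variable log2 fold change of 1.75 (SE 0.63, adjusted p = 0.182 by DESeq2), with R26-WT libraries from 52.9 to 276 normalized counts. Kif20b (chromosome 19, 34899761 to 34953145, plus strand), a cytokinesis motor, had normalized counts of 663, 742, 448 and 446 in R26-WT replicates 1 to 4. In R26-TIR1(F74G), Kif20b ranged from 515 to 784 with a median of 668. The groups overlapped. Kif20b differed by 0.19 on the log2 scale (SE 0.20), with adjusted p = 1.000 by DESeq2 and 0.999 by edgeR. The log2 difference was 0.34 without R26-WT replicate 2 and 0.09 without R26-WT replicate 3 or 4. Without the 3 libraries at the ends of the length trend the log2 difference turned to −0.14.

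Of the 10 spindle and microtubule proteins, 8 were higher by DESeq2 and 3 of these by edgeR (Stmn1, Hmmr and Tacc3). Spag5 (chromosome 11, 78192355 to 78213283, plus strand), the astrin protein that stabilizes attachments, had normalized counts of 16.7, 64.9, 21.97 and 10.99 in R26-WT replicates 1 to 4. In R26-TIR1(F74G), Spag5 ranged from 90.3 to 346 with a median of 163. Its libraries did not overlap, replicate 7 was highest, and Spag5 had the largest fold of all 60 members. Spag5 differed by 2.61 on the log2 scale (SE 0.46), with adjusted p = 7.20e-06 by DESeq2 and 0.0639 by edgeR. Leaving out 1 library gave Spag5 a log2 fold change of 2.29 to 3.39, the highest without R26-WT replicate 2. Hmmr and Tpx2, which act with Aurora A at the spindle, had log2 fold changes of 1.73 (SE 0.31, adjusted p = 1.23e-05 by DESeq2) and 1.53 (SE 0.29, adjusted p = 5.83e-05 by DESeq2). Tacc3, a clathrin partner on spindle fibres, had one of 0.75 (SE 0.14, adjusted p = 1.21e-05 by DESeq2). It had the highest level per length of the called members, with 15.5 ± 2.94 TPM over the 4 R26-WT libraries as mean ± SD against 26.9 ± 4.08 over the 6 R26-TIR1(F74G) libraries. Prc1, Nusap1 and Ckap2l lay at 1.34 (SE 0.33), 1.67 (SE 0.41) and 1.56 (SE 0.36), all without overlap. Prc1 lost its call without R26-WT replicate 3 or 4 (DESeq2 adjusted p = 0.0646 and 0.0681), and Nusap1 without R26-WT replicate 3 or R26-TIR1(F74G) replicate 7 (0.0525 and 0.171). Dlgap5 (chromosome 14, 47625236 to 47655864, minus strand), which bundles kinetochore fibres, had normalized counts of 464, 468, 609 and 572 in R26-WT replicates 1 to 4. In R26-TIR1(F74G), Dlgap5 ranged from 461 to 734 with a median of 615. Its groups overlapped. Dlgap5 differed by 0.19 on the log2 scale (SE 0.15), with adjusted p = 1.000 by DESeq2 and 0.999 by edgeR. The log2 difference was 0.13 without R26-TIR1(F74G) replicate 7. Ckap2 did not pass either.

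Of the 4 cytokinesis genes, Cit and Anln were higher by DESeq2 and not by edgeR or limma voom, though edgeR with the length trend removed called both (edgeR adjusted p = 0.0204 and 0.0421). Cit (chromosome 5, 115983337 to 116147006, plus strand), the citron kinase of the contractile ring, had normalized counts of 89.2, 131, 116 and 76.1 in R26-WT replicates 1 to 4. In R26-TIR1(F74G), Cit ranged from 165 to 387 with a median of 246. No libraries overlapped. Cit differed by 1.35 on the log2 scale (SE 0.26), with adjusted p = 7.46e-05 by DESeq2 and 0.0581 by edgeR. Anln (chromosome 9, 22243308 to 22300484, minus strand), the anillin scaffold of the ring, is one of the lowest members, with normalized counts of 9.55, 39.4, 17.9 and 4.23 in R26-WT replicates 1 to 4. In R26-TIR1(F74G), Anln ranged from 55.8 to 199 with a median of 70.5. Its raw counts went down to 5. All R26-TIR1(F74G) libraries were above R26-WT, replicate 7 most. Anln differed by 2.38 on the log2 scale (SE 0.51), with adjusted p = 6.59e-04 by DESeq2 and 0.125 by edgeR. Leaving out 1 library gave 1.99 to 3.12 on the log2 scale for Anln, the highest without R26-WT replicate 2. Ect2 (chromosome 3, 27151371 to 27208027, minus strand), which activates RhoA at the midzone, had normalized counts of 216, 296, 85.5 and 126 in R26-WT replicates 1 to 4. In R26-TIR1(F74G), Ect2 ranged from 151 to 592 with a median of 304. Replicates 6, 9 and 10 fell within the R26-WT range. Ect2 differed by 0.80 on the log2 scale (SE 0.38), with adjusted p = 0.626 by DESeq2 and 0.888 by edgeR. Leaving out R26-TIR1(F74G) replicate 7 gave a log2 difference of 0.52. Racgap1, its partner, had a log2 fold change of 0.75 (SE 0.25, adjusted p = 0.103 by DESeq2).

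Among the genes of anaphase entry and cohesion protection, 2 of 6 were higher. Ube2c (chromosome 2, 164611818 to 164620742, plus strand), the ubiquitin-conjugating enzyme of the anaphase-promoting complex, had normalized counts of 70.9, 82.6, 79.8 and 56.7 in R26-WT replicates 1 to 4. In R26-TIR1(F74G), Ube2c ranged from 147 to 274 with a median of 229.6. The lowest R26-TIR1(F74G) library, replicate 10, was above the highest R26-WT library. Ube2c differed by 1.63 on the log2 scale (SE 0.22), with adjusted p = 8.33e-11 by DESeq2 and 0.0100 by edgeR. Tnnc2 on the other strand overlaps 22.8% of its exon bases. Sgo1 (chromosome 17, 53981814 to 53996361, minus strand), the shugoshin that protects centromeric cohesion, had normalized counts of 225, 169, 99.3 and 148 in R26-WT replicates 1 to 4. In R26-TIR1(F74G), Sgo1 ranged from 245 to 360.2 with a median of 314. Here too the margin was small. Sgo1 differed by 0.92 on the log2 scale (SE 0.22), with adjusted p = 0.00362 by DESeq2 and 0.118 by edgeR. Sgo2a (chromosome 1, 58035130 to 58065058, plus strand), the related shugoshin, had normalized counts of 40.6, 51.2, 14.6 and 43.1 in R26-WT replicates 1 to 4. In R26-TIR1(F74G), Sgo2a ranged from 38.2 to 73.1 with a median of 47.3. Its low counts overlapped. Sgo2a differed by 0.44 on the log2 scale (SE 0.35), with adjusted p = 1.000 by DESeq2 and 0.999 by edgeR. Without R26-WT replicate 3 the log2 difference was 0.17, and without the 3 libraries at the ends of the length trend −0.0034. Kctd18 on the other strand overlaps 35.04% of its exon bases. Cdc20, the activator of the anaphase-promoting complex, had a log2 fold change of 0.60 (SE 0.18, adjusted p = 0.0647 by DESeq2), and Pttg1, which encodes securin, one of −0.25 (SE 0.18, adjusted p = 1.000 by DESeq2). Without the 3 libraries at the ends of the length trend Pttg1 turned to 0.10.

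Espl1 (chromosome 15, 102204701 to 102232792, plus strand), the separase that securin holds inactive, is named here because of its values. Its normalized counts were 35.8, 54.1, 5.70 and 1.69 in R26-WT replicates 1 to 4, 456 in R26-TIR1(F74G) replicate 7 and 54.4 to 88.4 in the other 5. The ranges did not overlap, but by less than 1 normalized count. DESeq2 gave Espl1 no p because its filter on outlying counts removed the gene, and without replicate 7 the log2 fold change was 1.46 (SE 0.62, DESeq2 adjusted p = 0.470). Without R26-WT replicate 2 it was 3.19, again with no p.

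In condensin and chromosome structure, Ncapg and Ncaph of condensin I passed beside Top2a and Mki67, and the shared condensin core did not. Ncaph (chromosome 2, 126945729 to 126975874, minus strand), the subunit that closes the condensin ring, had normalized counts of 245, 238, 166 and 112 in R26-WT replicates 1 to 4. In R26-TIR1(F74G), Ncaph ranged from 264 to 647 with a median of 417. The ranges were apart. Ncaph differed by 1.18 on the log2 scale (SE 0.27), with adjusted p = 0.00177 by DESeq2 and 0.114 by edgeR. Ncapg had a log2 fold change of 1.24 (SE 0.29, adjusted p = 0.00266 by DESeq2). Ncapd2 (chromosome 6, 125144970 to 125168664, minus strand), also specific to condensin I, had normalized counts of 1202, 1615, 667 and 619.8 in R26-WT replicates 1 to 4. In R26-TIR1(F74G), Ncapd2 ranged from 886 to 2691 with a median of 1364. R26-WT replicate 2 was above 5 of the 6 R26-TIR1(F74G) libraries. Ncapd2 differed by 0.52 on the log2 scale (SE 0.33), with adjusted p = 1.000 by DESeq2 and 0.999 by edgeR. Leaving out 1 R26-WT library moved the log2 difference up to 0.83 (replicate 2) or down to 0.35 (replicate 4), and leaving out R26-TIR1(F74G) replicate 7 to 0.26. Without the 3 libraries at the ends of the length trend the log2 difference turned to −0.19. Smc2 did not overlap but had a small log2 fold change of 0.26 (SE 0.092, adjusted p = 0.160 by DESeq2). Smc4, with 553 ± 15.9 TPM over the 4 R26-WT libraries as mean ± SD against 502 ± 16.7 over the 6 R26-TIR1(F74G) libraries, was by far the most abundant member and had a log2 fold change of −0.20 (SE 0.10, adjusted p = 0.801 by DESeq2). Smc4 took a large share of the members' reads. The members' summed CPM, 1581 to 1828 in R26-WT and 1671 to 1949 in R26-TIR1(F74G), overlapped between the groups, whereas without Smc4 it was 707 to 737 and 841 to 1139, without overlap.

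Fold change fell with level. Among members with a mean over all 10 libraries under 2 TPM, 12 of 15 were called and the median log2 fold change was 1.57. From 2 to 10 TPM, 22 of 34 were called, with a median of 1.13. At 10 TPM or more, 2 of 11 were called (Tacc3 and Stmn1), with a median of 0.52. Over all tested genes the share called higher was 2.08%, 2.37% and 0.684% in the same 3 ranges.

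**Figure D4:**
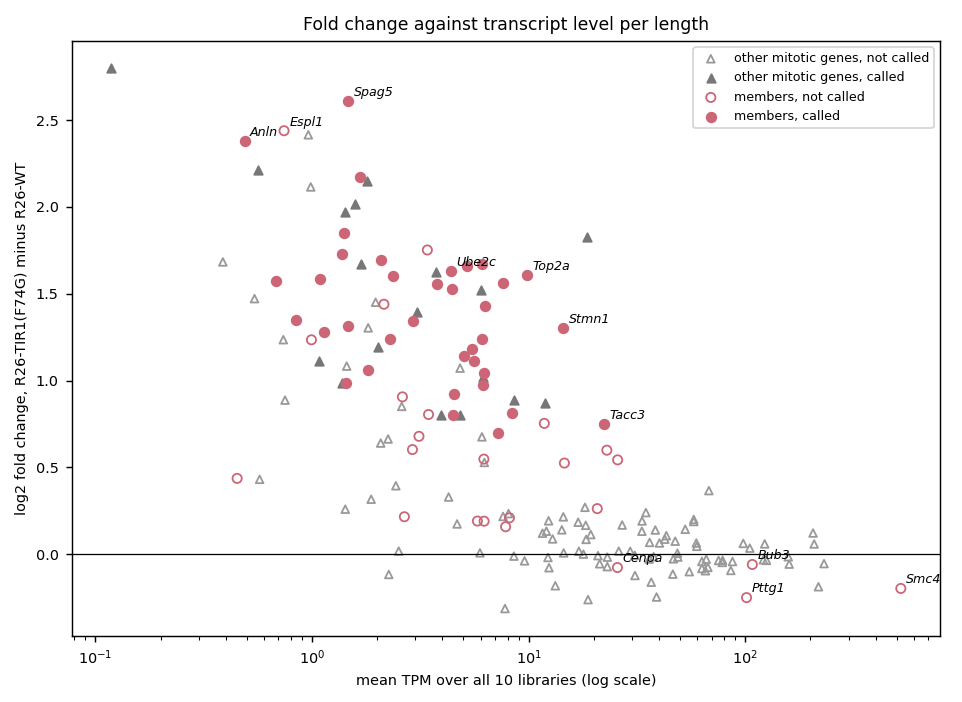
The horizontal axis (log scale) is the mean TPM over all 10 libraries and the vertical axis the DESeq2 log2 fold change of R26-TIR1(F74G) over R26-WT. Circles are the 60 members and triangles 119 other mitotic genes, filled where called. Called members fill the upper left, while Smc4, Pttg1, Bub3 and Cenpa sit near 0 at the right.

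Subunits of 1 complex differed in how far they moved. Pairs were chosen after their values were seen, so the following are descriptions without a test, on a log2 ratio of normalized counts with 0.5 added. The ratio of Nuf2 to Ndc80, which are bound to each other in the same rod, averaged −3.42 ± 0.63 over the 4 R26-WT libraries (mean ± SD, also in the pairs that follow) against −2.23 ± 0.41 over the 6 R26-TIR1(F74G) libraries, and overlapped at 1 R26-WT library. For Aurkb to Incenp it was −3.75 ± 0.23 and −2.63 ± 0.27, and for Ncaph to Smc4 −7.88 ± 0.64 and −6.49 ± 0.52, both without overlap. For Bub1b to Bub3 it was −6.11 ± 0.93 and −4.86 ± 0.68, with overlap and replicate 7 highest. Ube2c to Pttg1, an enzyme and a substrate of the anaphase-promoting complex, gave −5.49 ± 0.49 and −3.63 ± 0.48, without overlap. The centralspindlin partners Kif23 and Racgap1 kept a similar ratio, −2.12 ± 0.38 in R26-WT and −2.01 ± 0.34 in R26-TIR1(F74G), a difference whose sign turned without R26-WT replicate 1.

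Libraries of 1 genotype also differed together across the members. The mean log2 normalized count of the 60 members was 7.73, 7.92, 7.33 and 6.95 in R26-WT replicates 1 to 4 and 8.31 to 9.17 in R26-TIR1(F74G), with replicate 7 highest and replicate 5 lowest. With the length trend removed it was 7.09 to 7.82 in R26-WT and 8.27 to 8.99 in R26-TIR1(F74G), so the groups were apart either way. R26-TIR1(F74G) replicate 7 held the highest value of its group for 42 members, and for 34 with the trend removed, whereas R26-WT replicate 4 held the lowest of its group for 37 and 34. Without replicate 7, 30 of the 36 calls remained (background 1.18%), no member was added and the median log2 fold change was 0.96. The 6 lost were Aurka, Bub1, Bub1b, Cenpf, Kif15 and Nusap1. In all 10 fits that left out 1 library, 25 members were called, and 11 lost their call in at least 1 fit. Over all tested genes those fits called 187 to 346 genes in either direction. Incenp, Kif11, Kif18b, Kif23 and Racgap1 gained a call without R26-WT replicate 2, Ttk without R26-WT replicate 1, Kif23 also without R26-TIR1(F74G) replicate 9, and Cdc20 without R26-TIR1(F74G) replicate 10.

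Other mitotic genes were counted from 8 lists with 119 genes in all, all of which were tested. Of these, 18 were higher (15.1%) and none lower by DESeq2, against 1.4% and 0.336% of all tested genes. edgeR called 3 higher (Ska1, Nek2 and Cdk1), against 0.33% of all tested genes. These lists too were chosen with earlier results of these data known. Of the mitotic cyclins and Cdk1, 3 of 4 were called. Cdk1, the kinase of mitotic entry, had normalized counts of 99.5, 142, 119 and 79.5 in R26-WT replicates 1 to 4. In R26-TIR1(F74G), Cdk1 ranged from 214 to 347 with a median of 299. The ranges were apart. Cdk1 differed by 1.39 on the log2 scale (SE 0.21), with adjusted p = 1.12e-08 by DESeq2 and 0.0135 by edgeR. Ccnb2, a cyclin partner of Cdk1, had a log2 fold change of 1.83 (SE 0.34, adjusted p = 2.10e-05 by DESeq2), Ccna2 one of 1.52 (SE 0.34, adjusted p = 0.00145 by DESeq2), and Ccnb1, which did not pass, one of 1.08 (SE 0.36, adjusted p = 0.103 by DESeq2).

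Of 27 other kinetochore proteins, 5 were called, among them Ska1, Cenpi, Cenps and Oip5. Ska1, which couples kinetochores to shrinking microtubules, had normalized counts of 21.5, 20.7, 18.7 and 18.6 in R26-WT replicates 1 to 4. In R26-TIR1(F74G), Ska1 ranged from 52.5 to 112 with a median of 76.2. The ranges were apart. Ska1 differed by 1.97 on the log2 scale (SE 0.29), with adjusted p = 5.39e-09 by DESeq2 and 0.0105 by edgeR. Of 24 other spindle and cytokinesis proteins, 6 were called, among them Nek2, a centrosome kinase, at 2.15 (SE 0.37, adjusted p = 2.71e-06 by DESeq2) and Gpsm2, a spindle orientation protein, at 0.87 (SE 0.18, adjusted p = 3.68e-04 by DESeq2). Kif14, at 2.80 (SE 0.69, adjusted p = 0.00483 by DESeq2), had normalized counts of 0 to 12.2 in R26-WT and 16.2 to 42.6 in R26-TIR1(F74G), so its fold rests on few reads. Its mean was 3.76 in R26-WT and 26.4 in R26-TIR1(F74G), so it passed the filter on the mean count only through the group where it is high.

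None of 17 genes of the anaphase-promoting complex list, 15 of gamma-tubulin and augmin and 3 specific to condensin II was called by DESeq2 or by edgeR, with an unadjusted DESeq2 p under 0.05 for 0, 1 and 1 of them, and their median log2 fold changes were 0.0079, 0.068 and 0.27. With 1.4% of all tested genes called higher, 0 calls in lists of this size do not set these lists apart. Of 13 cohesin genes, 2 were called, and the median log2 fold change over the 13 was 5.13e-04. They were Cdca5, which encodes sororin, at 1.02 (SE 0.22, adjusted p = 7.03e-04 by DESeq2) and Esco2, the acetyltransferase of S phase, at 1.67 (SE 0.44, adjusted p = 0.0118 by DESeq2). Of 16 regulators of G2/M transcription, Mybl2, the B-Myb activator, and E2f7, a repressor of E2F targets, were called, at 1.19 (SE 0.33, adjusted p = 0.0246 by DESeq2) and 2.21 (SE 0.56, adjusted p = 0.00817 by DESeq2). Foxm1, the G2/M activator, had 1.30 (SE 0.62, adjusted p = 0.626 by DESeq2).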

How the data were processed

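RNA-seq was done on Treg cells from spleen and lymph nodes, with groups taken from the genotype labels. The deposited values are raw counts of read pairs per gene name, which the authors made with featureCounts 2.1.1 and GENCODE M30, per the file headers, from paired primary alignments with a mapping quality of at least 30 and no strand option, so that pairs overlapping more than 1 gene were left out. The study's methods name STAR as aligner and the submitters' processing notes name Bowtie2, DESeq2 and mm39; which aligner made these counts could not be settled here.

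Counts were tested in R 4.3.3 with the DESeq2 1.42.0 Wald test with the design ~genotype, a mean count of at least 10 and an adjusted p under 0.05, as in the study's methods. Independent filtering was turned off here, with Benjamini-Hochberg adjustment over 16363 genes. The quasi-likelihood test of edgeR 4.0.16 is printed beside it, and limma 3.58.1 (voom) was an alternative. Normalized counts are counts over DESeq2 size factors. TPM, a level per transcript length, was computed from the counts and the exon lengths in the files, and CPM from library totals. The length trend was removed per library by a smooth curve with 4 degrees of freedom. The DESeq2, edgeR and limma voom fits were tested on simulated counts, which held no length trend. For 6 genes, Espl1 among them, DESeq2 gave no adjusted p.

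The members and lists were chosen with earlier results of these data known. Named members are Mki67, Top2a and Stmn1 and, in each of the 9 roles, the 2 with the smallest and the 1 with the largest DESeq2 p; in other lists, the 2 called genes with the smallest p. A gene that this rule names in the other lists, and some markers, are not reported here. Espl1 and the further members given with a fold change were chosen after their values were seen. Promoter windows are from RefSeq (GRCm38.p6 table), placed by exact match in GRCm39 with GENCODE M39 exons. Depth limits low members, and statements on error cover the spread between libraries only. Alternatives were other tests, TMM scaling, count filters, a minimum fold, the length trend and leaving out each library.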

Additional observations from a re-analysis of the deposited data

Results flagged for a closer look

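In 7 of the 76 groups of values examined, a single library lay far outside the rest of its group by Dixon's test, and in each it was R26-TIR1(F74G) replicate 7 as the highest value. Chance alone sets a library apart in about 1 in 20 groups, and values of 1 library are not independent of each other. Replicate 7 had 487.0 normalized counts of Aurkb, against 222 to 292 in the other 5 R26-TIR1(F74G) libraries, and 2589 of Incenp, against 1456 to 1857. It had 423 of Kif4, against 119 to 172, and 346 of Spag5, against 90.3 to 177. For the low genes Anln and Espl1 it had 199 and 456, where the others had 55.8 to 97.3 and 54.4 to 88.4. The log2 ratio of Bub1b to Bub3 was −3.52 in replicate 7 and −5.37 to −4.92 in the others. Replicate 7 also had the highest difference between long and short genes (0.63 on a log2 scale), and its part in these values was not tested.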

How the results depend on the processing

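The 36 member calls were 8 by edgeR and 12 by limma voom, 22 by edgeR with the length trend removed and 20 without R26-WT replicates 3 and 4 and R26-TIR1(F74G) replicate 7, the last 2 chosen after seeing the data. The 18 calls among other mitotic genes were 3, 4, 6 and 9 under the same settings, and the 284 calls over all genes were 61 (54 higher), 80 (69 higher), 124 (108 higher) and 472 (186 higher), and 156 (144 higher) with a log2 difference of 1 or more in size. No member was called lower under any alternative run. Leaving out 1 library gave 27 to 38 members called higher, 0 called lower and 15 to 22 other mitotic genes called higher. Over all tested genes it gave 187 to 346 calls in either direction, the lowest without R26-WT replicate 4. The difference in mean library total was −12922800 to −7608330 read pairs, with an exact permutation p of 0.0317 to 0.131, and lost its call without R26-WT replicate 1, 3 or 4 or R26-TIR1(F74G) replicate 5, 6, 8 or 9. Leaving out 1 library gave log2 values of −0.13 to 0.014 for Bub3, −0.17 to 0.0025 for Cenpa and −0.054 to 0.25 for the ratio of Kif23 to Racgap1. Among members that were not called, the log2 fold change turned for Bub3 (0.014 without R26-WT replicate 4, 0.0033 without R26-TIR1(F74G) replicate 7 and 0.20 without the 3 libraries), Cenpa (0.0025 without R26-WT replicate 3 and 0.060 without the 3), Kif20b (−0.14), Pttg1 (0.10), Sgo2a (−0.0034) and Ncapd2 (−0.19, each without the 3). The log2 ratio of Kif23 to Racgap1 turned to −0.054 without R26-WT replicate 1. The cause was not tested. Counting depth limits members with few reads such as Anln and Sgo2a. No paired analysis was run because the labels give no pairing of libraries. The study's methods name littermates as controls unless stated otherwise, but the labels do not give litters.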
